A study of Homo sapiens with 32 samples.

Results

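The D-type cyclins, their kinase partners and the inhibitors that hold them back were followed through all conditions of an RNA sequencing experiment on HEK293 cells, an established human embryonic kidney line. The genes were chosen by name: the rows of both count tables for CCND1, CCND2, CCND3, CDK4, CDK6, CDKN1A, CDKN1B, CDKN1C, CDKN2C and CDKN2D, 10 of 57773 genes in each table. All cells, controls included, were transiently transfected with an expression plasmid for human AT1R, the angiotensin II receptor type 1, and were moved to medium without serum before the stimuli were added. They received no stimulus (control), 1 nmol/l angiotensin II (AII), 10 µg/l EGF, or both (AII + EGF) for 6 h or 24 h. Transient transfection reaches only some of the cells, and each library averages over reached and unreached ones.

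D-type cyclins are the regulatory subunits of CDK4 and CDK6. The active complexes phosphorylate the retinoblastoma protein and its relatives, which releases E2F transcription factors and lets a cell pass from G1 into S phase. Growth factors acting through ERK are known to raise CCND1 transcription, so this cyclin is often read as a sensor of mitogens. INK4 proteins (here CDKN2C, which encodes p18, and CDKN2D, which encodes p19) bind CDK4 and CDK6 directly, whereas the CIP/KIP proteins (CDKN1A, p21, CDKN1B, p27, CDKN1C, p57) inhibit CDK2 complexes and can also take part in assembling the cyclin D complexes. HEK293 cells carry adenoviral E1A, which binds the retinoblastoma protein itself. This limits the line as a model of how these genes steer the cell cycle.

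Counts of 16 libraries after 6 h and of 15 after 24 h were analysed, 4 per condition except 3 for AII + EGF after 24 h. They held 3881841 to 8540815 counts per library after 6 h and 6646227 to 33070903 after 24 h, but U1 small nuclear RNA took 8.901 to 57.18% of the counts after 24 h against at most 0.2999% after 6 h, and the share of protein-coding genes was 20.8 to 63.4% against 81.41 to 84.67%. The biological coefficient of variation was 29.1% after 24 h and 10.6% after 6 h, so that the later comparisons were less precise. By their mean over the libraries of a time point, 4 of 5 genes typical of HEK293 cells were above 1 FPM at both times. These were NEFM, NEFL, INA and LIN28B, not PAX2. None of 3 endothelial, 4 leukocyte, 3 keratinocyte and 3 hepatocyte markers was, and of 5 fibroblast markers COL1A1 and PDGFRA were. The endothelial list as planned was longer than the 3 markers read here. In single libraries PAX2 reached 1.16 FPM and the endothelial markers a sum of 3.12 FPM. AGTR1, the transfected receptor, lay between 950.1 and 1568 FPM after 6 h and between 368.9 and 685 FPM after 24 h in all libraries. After 6 h it differed by condition: libraries without AII had 950.1 to 1236 FPM and libraries with AII 1318 to 1568 FPM, without overlap. After 24 h the libraries with and without AII overlapped. The cause was not tested. FPM are counts per 1000000 of the library size after TMM normalisation, and all 10 genes passed the filter on low counts at both times.

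The promoter table used here, taken from RefSeq (GRCh38.p14), matched 7 of the 10 genes, and CCND1, CCND2 and CDKN1C were not searched. The stretches of CDK6 and CDKN1A are shown because both genes rose with EGF (below), and the 250 bases before the start were searched on both strands for short motifs. Capitals mark matches to GGGCGG, the letters used here for SP1, and to GCGNGGGCG, those used for EGR factors, where N is any base. The match in CDK6 reads GCGCGGGCG. The EGR match of CDK6, 89 to 81 bases before the start, overlaps an SP1 match at 85 to 80. Of the stretches listed for CDK6 the one ahead of the annotated gene start is shown, and the other, inside the gene, held no match to any motif searched. The only stretch listed for CDKN1A lies inside the annotated span of that gene, not ahead of its start.
CDK6, GRCh37 chr7:92465888-92466137, minus strand: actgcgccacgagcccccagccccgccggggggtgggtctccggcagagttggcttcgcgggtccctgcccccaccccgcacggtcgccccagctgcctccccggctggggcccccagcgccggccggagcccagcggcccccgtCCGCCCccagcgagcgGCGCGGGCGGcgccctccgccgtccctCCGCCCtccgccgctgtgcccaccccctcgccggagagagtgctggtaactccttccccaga
CDKN1A, GRCh37 chr6:36646241-36646490, plus strand: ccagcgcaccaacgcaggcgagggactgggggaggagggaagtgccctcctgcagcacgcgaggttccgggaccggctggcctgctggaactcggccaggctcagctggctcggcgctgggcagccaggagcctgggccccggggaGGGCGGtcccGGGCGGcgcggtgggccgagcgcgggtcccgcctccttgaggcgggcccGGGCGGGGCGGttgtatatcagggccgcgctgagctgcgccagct

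The SP1 letters were found in 42.6% of the 35116 promoters of the table and the EGR letters in 8.41%. The table gives these 7 genes 12 stretches in all, of which 9 held the SP1 letters and 3 the EGR letters. All 7 genes had the SP1 letters. The EGR letters were found for CCND3, CDK6 and CDKN2C, of which only CDK6 passed with EGF (below), and not for CDKN1A. The AP-1 letters TGAGTCA, present in 4.2% of all promoters, and the CArG box of serum response factor, present in 1.16%, were not in these windows. These are matches of letters, not sites shown to be bound.

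After 6 h 3 of the 10 genes rose with EGF: the cyclin CCND1, the kinase CDK6 and the inhibitor CDKN1A, each between 1.31-fold and 1.48-fold. The share of all 18618 tested genes that passed the same test (edgeR quasi-likelihood, Benjamini-Hochberg adjusted p under 0.05) was 5.97%. No member fell. With AII + EGF the same 3 genes passed, again upwards, against 6.1% of all genes. The other cyclins, CDK4 and the other inhibitors passed in neither comparison.

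CCND1 had 94.1, 85.5, 85.5 and 94.6 FPM in the 4 control libraries and 125, 121, 138 and 147 FPM in the 4 EGF libraries. AII + EGF gave 132, 125, 134 and 140 FPM, whereas AII alone gave 92.2, 87.7, 99.4 and 92.1 FPM. Every library with EGF was above every library without it. The log2 fold change was 0.56 (SE 0.076, adjusted p = 4.5e-05) with EGF and 0.56 (SE 0.076, adjusted p = 3.9e-05) with AII + EGF. CCND1 (ENSG00000110092) lies on chromosome 11 (69455924 to 69469242, plus strand, GRCh37) and shares 497 exon bases with LTO1 on the opposite strand, which the tables name ORAOV1. The strand setting of the counting is not stated. ORAOV1 was at 31.4 FPM ± 3.6 (SD, n = 4) in control and 27.3 ± 1.9 with EGF, with a log2 fold change of -0.20 (SE 0.115, adjusted p = 0.35).

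CDK6 had 148, 192, 199 and 174 FPM in control and 286, 238, 253 and 261 FPM with EGF. With AII + EGF it had 250, 235, 246 and 226 FPM and with AII 194, 195, 185 and 202 FPM. Again no library with EGF overlapped the controls. The gene (ENSG00000105810) spans bases 92234235 to 92465887 of chromosome 7 on the minus strand (GRCh37). The log2 fold change was 0.54 (SE 0.081, adjusted p = 0.00018) with EGF and 0.42 (SE 0.081, adjusted p = 0.0019) with AII + EGF. The means were higher in both library series, that is, libraries numbered 1 to 8 and 9 to 16: with EGF the log2 ratio was 0.45 and 0.66 for CCND1 and 0.63 and 0.46 for CDK6, and with AII + EGF it was 0.52 and 0.60 for CCND1 and 0.51 and 0.34 for CDK6.

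CDKN1A, which encodes p21 and is a textbook target of p53 as well as of mitogen signalling, had 83.7, 68.0, 57.1 and 61.4 FPM in control. EGF gave 90.7, 91.3, 81.9 and 89.7 FPM, AII + EGF 96.0, 96.4, 86.1 and 89.2 FPM and AII 72.7, 62.4, 65.2 and 51.2 FPM. The highest control library lay above the lowest EGF library, while AII + EGF did not overlap control. CDKN1A (ENSG00000124762) lies on chromosome 6 at 36644237 to 36655114 on the plus strand. The log2 fold change was 0.39 (SE 0.103, adjusted p = 0.021) with EGF and 0.45 (SE 0.103, adjusted p = 0.0089) with AII + EGF. The call with EGF is the weakest of the 3: it was lost when any one of control libraries c09 and c10 or EGF libraries c03, c04 and c12 was left out, with adjusted p up to 0.077. In the first and the second library series the log2 ratio was 0.26 and 0.54 with EGF and 0.34 and 0.56 with AII + EGF.

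**Figure D1:**
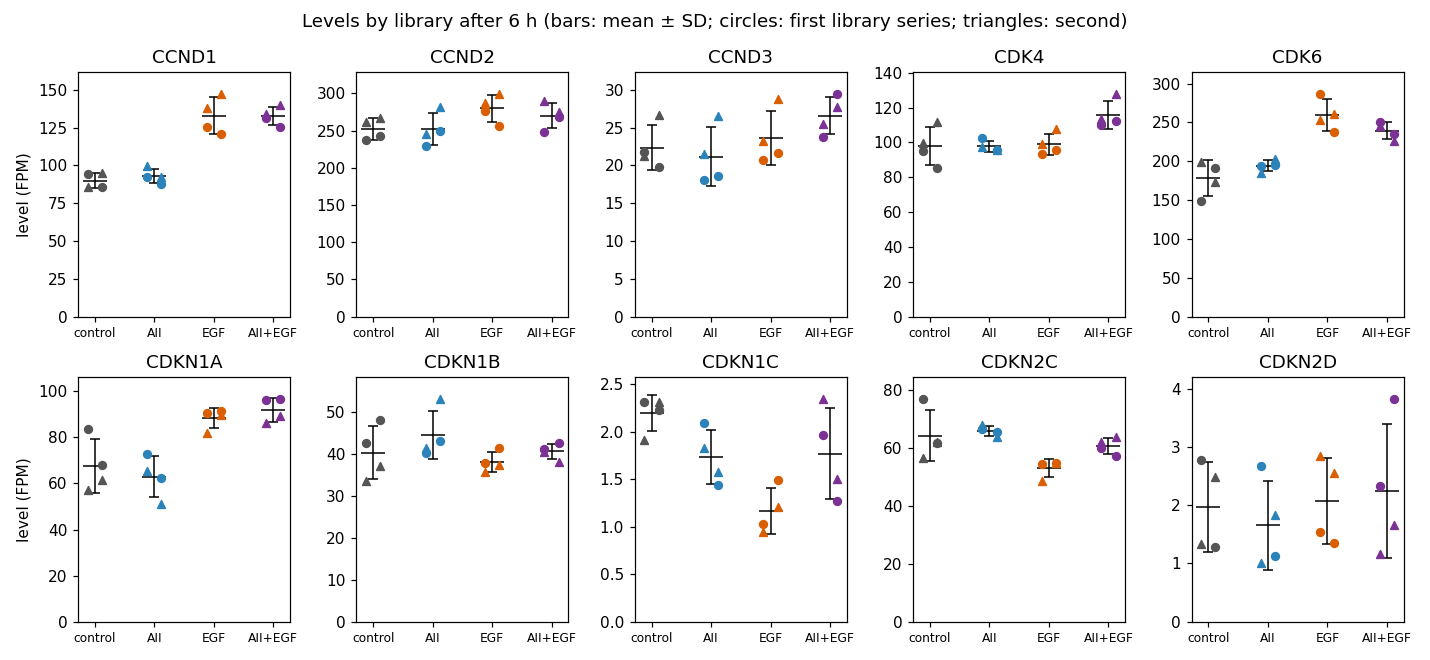
Levels after 6 h in FPM (vertical axes, each from 0) for the 10 genes in the 4 conditions. Points are libraries and bars the mean ± SD. CCND1 and CDK6 in the EGF and AII + EGF libraries sit above every control library, and CDKN1A with EGF overlaps control (81.9 against 83.7 FPM).

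The libraries of EGF and control did not overlap for 4 members, the risers CCND1 and CDK6 and also CDKN1C and CDKN2C, which were lower with EGF. Over all genes 12% were without overlap in either direction, and with AII + EGF 12.1%, where CCND1, CDK6 and CDKN1A were the members concerned. The study's own filters on fold change (above 1.5) and FPM (above 5), applied to the called genes, kept 1.73% of all genes with EGF and 1.95% with AII + EGF but none of these 10, since each riser changed by less than 1.5-fold.

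CDKN2C, the INK4 inhibitor p18, had 76.8, 61.7, 56.5 and 62.0 FPM in control and 54.4, 55.0, 48.5 and 54.8 FPM with EGF. It was lower in every EGF library, yet its log2 fold change of -0.27 (SE 0.086) did not pass (adjusted p = 0.066). It passed with DESeq2 (adjusted p = 0.046), among protein-coding genes alone (adjusted p = 0.042) and without control library c09 (adjusted p = 0.035), but over all settings the adjusted p reached 0.25. That value came without control library c01, where the log2 fold change was -0.17, and without EGF library c11 or without the filter on low counts it was 0.21. With AII + EGF it had 59.9, 57.4, 61.9 and 63.9 FPM, all within the control range, and the log2 fold change was -0.08 (SE 0.086). CDKN1C, p57, had few counts, with 10, 14, 10 and 14 counts in control and 6, 10, 6 and 10 with EGF. Its log2 fold change was -0.89 (SE 0.31, adjusted p = 0.095). In FPM it had 1.92 to 2.32 in control and 0.947 to 1.49 with EGF. With AII + EGF CDKN1C had 1.27 to 2.34 FPM, which overlapped control. The log2 fold change there was -0.30 (SE 0.296, adjusted p = 0.66).

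CDK4, the other kinase partner of the D cyclins, had 95.3, 85.2, 99.6 and 112 FPM in control and 93.2, 95.3, 99.3 and 107 FPM with EGF, a log2 fold change of 0.02 (SE 0.081, 95% interval -0.152 to 0.182). With AII + EGF it reached 110, 112, 113 and 128 FPM, a log2 fold change of 0.24 (SE 0.081, adjusted p = 0.078). Taken against EGF alone, AII + EGF differed by 0.23 (SE 0.08), with an unadjusted p of 0.0086 and an adjusted p of 0.68. No gene passed in that comparison (0%), nor did DESeq2 call a member, and 2 members, CDK4 and CDKN2C, had an unadjusted p under 0.05 against 7.26% of all genes. The call against control was gained without control library c10 (adjusted p = 0.026) and with library series as a term (adjusted p = 0.041), and in the other settings the adjusted p ran up to 0.25. CDK4 (chromosome 12, 58141510 to 58149796, minus strand) shares 1369 exon bases with TSPAN31 on the other strand, which counts at most 313 reads in a library and had a log2 fold change of -0.08 (SE 0.133, adjusted p = 0.8) with AII + EGF.

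Neither CCND2, the second of the D cyclins, nor CCND3 passed. CCND2 had 237, 242, 262 and 267 FPM in control and 277, 256, 287 and 299 FPM with EGF, a log2 fold change of 0.15 (SE 0.074, adjusted p = 0.26). CCND3 had 21.7, 19.8, 21.3 and 26.6 FPM in control, 20.7, 21.7, 23.2 and 28.7 FPM with EGF and 23.8, 29.4, 25.5 and 27.7 FPM with AII + EGF. All of these ranges overlapped. The log2 fold change of CCND3 was 0.08 (SE 0.134, adjusted p = 0.79) with EGF and 0.25 (SE 0.134, adjusted p = 0.33) with AII + EGF. CDKN1B, p27, which is known best for control of its protein rather than of its mRNA, had 42.6, 48.2, 33.5 and 37.0 FPM in control and 37.8, 41.4, 35.7 and 37.5 FPM with EGF. The EGF libraries lay within the control range, and the log2 fold change was -0.08 (SE 0.107, adjusted p = 0.72). CDKN2D, p19, stayed between 6 and 21 counts in all 16 libraries after 6 h.

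Level comparisons between genes need a length. Per kilobase of the canonical transcript, the order in control after 6 h was CDKN2C (64.6 ± 8.76 FPM per kb, SD, n = 4), CDK4 (52.5 ± 5.84), CCND2 (38.8 ± 2.3), CDKN1A (31.9 ± 5.52), CCND1 (21.2 ± 1.21), CDKN1B (16.7 ± 2.66), CDK6 (15.3 ± 1.95), CCND3 (11 ± 1.46), CDKN2D (1.38 ± 0.542) and CDKN1C (1.24 ± 0.107). Neighbours overlapped between libraries for CDKN2C and CDK4, CCND2 and CDKN1A, CDKN1B and CDK6, CDK6 and CCND3, and CDKN2D and CDKN1C. The order depends on the length chosen: with all annotated exons CDKN2C moved from place 1 to place 4. CDK4 (31.6 ± 3.5 FPM per kb, SD, n = 4) and CCND2 (31.5 ± 1.9) then led with nearly equal means. CDKN1B was at 4.36 and CCND3 at 3.88 FPM per kb. In both versions CDKN1C and CDKN2D, which have few counts, were the lowest. Neither length leaves out exon bases shared with other genes, such as those of CDK4 and TSPAN31. With the strand setting not stated, their part in these levels was not tested. After 24 h the control order was CCND2 (30.6 ± 3.47 FPM per kb, SD, n = 4), CDKN2C (27.7 ± 3.22), CDKN1A (16.5 ± 1.93), CDK4 (15.5 ± 2.31), CDKN1B (13.6 ± 2.05), CCND1 (9.11 ± 1.35), CDK6 (9.01 ± 1.05), CCND3 (4.32 ± 0.98), CDKN1C (1.45 ± 0.661) and CDKN2D (0.4 ± 0.249). The libraries of CCND2 and CDKN2C, CDKN1A and CDK4, CDK4 and CDKN1B, CCND1 and CDK6, and CDKN1C and CDKN2D overlapped.

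CCND2 was the most abundant D cyclin at both times. In control after 6 h it made up 54.6% ± 1.9 (SD, n = 4) of the summed D cyclin level per kb, CCND1 29.9% ± 1.6 and CCND3 15.5% ± 1.2. With all annotated exons the shares were 58.1, 34.8 and 7.12%. The share of CCND1 was 36.4% ± 0.44 with EGF and 36.4% ± 1.6 with AII + EGF, and the EGF libraries (35.9 to 36.9%) did not overlap control (28.4 to 32%). After 24 h CCND1 made up 20.7% ± 2.3 in control and 19.8% ± 1.6 with EGF. Because the 2 time points come from separate libraries that differ in U1 content, time and library cannot be told apart for levels set across them.

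**Figure D2:**
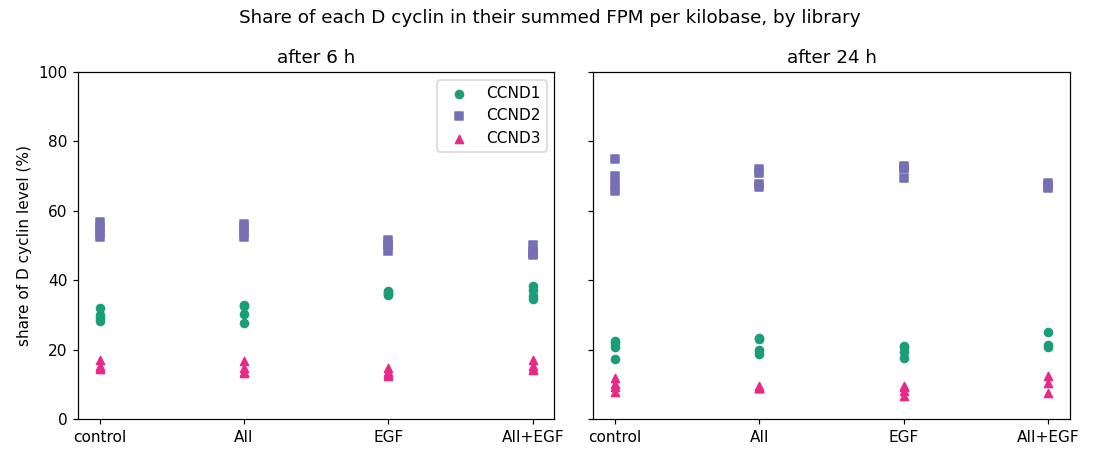
Share of CCND1, CCND2 and CCND3 (vertical axis, % of their summed FPM per kilobase) in each library for the 4 conditions after 6 h and 24 h. The CCND1 share after 6 h is 35.9 to 36.9% with EGF and 28.4 to 32% in control, and the ranges overlap after 24 h.

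With AII alone none of the 10 genes passed after 6 h, nor did any other gene (0%). The log2 fold changes were 0.05 (SE 0.077, 95% interval -0.113 to 0.207) for CCND1, 0.12 (SE 0.082, -0.05 to 0.288) for CDK6 and -0.09 (SE 0.106, -0.311 to 0.128) for CDKN1A. No member had an unadjusted p under 0.05, while 845 genes in all (4.54%) did, and DESeq2 also called 0 members. The interaction of AII and EGF, the AII + EGF effect minus the sum of the single effects on the log2 scale, passed for no member and no other gene (0%), DESeq2 called 0 members, and 2 members had an unadjusted p under 0.05 against 8.01% of all genes. It was -0.05 (SE 0.107) for CCND1, -0.24 (SE 0.115, unadjusted p = 0.049) for CDK6 and 0.92 (SE 0.437, unadjusted p = 0.045) for CDKN1C. For CCND1 the AII + EGF libraries differed from the EGF libraries by -0.003 on the log2 scale, with a 95% interval of -0.156 to 0.15.

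After 24 h no member passed in any comparison. With EGF 7 of 22174 genes passed, 0.0316%, and with AII + EGF 6, 0.0271%. No gene passed with AII, in AII + EGF against EGF or in the interaction (0% each). DESeq2 and voom called 0 members in each of these, and CDKN2D with EGF was the single member with an unadjusted p under 0.05. This is 1 of 10, and 8.48% of all genes had such a p in that comparison. It was 2.49% with AII, 5.4% with AII + EGF, 3.37% in AII + EGF against EGF and 2.37% in the interaction. The U1 content of these libraries, given above, moved with the time point, and its part in the lack of calls was not tested. CCND1 had 37.8, 35.9, 46.9 and 33.9 FPM in control and 39.1, 41.2, 38.8 and 47.2 FPM with EGF, a log2 fold change of 0.11 (SE 0.124, 95% interval -0.153 to 0.364). The interval leaves out the 0.56 seen after 6 h, which has its own interval of 0.408 to 0.721. The difference itself did not pass in the joint fit below (adjusted p = 0.21). CDK6 had 108, 121, 92.5 and 98.9 FPM in control and 94.9, 112, 114 and 94.2 FPM with EGF, and its log2 fold change was -0.02 (SE 0.14, 95% interval -0.31 to 0.274). CDKN1A had 32.7, 31.3, 40.6 and 34.9 FPM in control and 44.2, 41.8, 33.6 and 42.8 FPM with EGF. In 3 of the 4 EGF libraries CDKN1A was above every control library, and its log2 fold change was 0.22 (SE 0.117, 95% interval -0.026 to 0.459). The log2 ratio of CDKN1A was 0.43 in the first library series but 0.02 in the second. The 3 AII + EGF libraries gave log2 fold changes of 0.17 (SE 0.134) for CCND1, 0.01 (SE 0.152) for CDK6 and 0.12 (SE 0.126) for CDKN1A.

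CCND2 with EGF after 24 h had 246, 207, 222 and 252 FPM against 193, 170, 208 and 223 in control, and the ranges overlapped (log2 fold change 0.22, SE 0.121, adjusted p = 0.66). CDKN2C had 20.8, 21.7, 26.2 and 23.8 FPM against 22.9, 28.1, 30.1 and 29.1 in control, a log2 fold change of -0.25 (SE 0.139, adjusted p = 0.67) that was close in size to that after 6 h, and its EGF effect after 24 h minus that after 6 h was 0.02 (SE 0.158).

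CDKN2D with EGF after 24 h had 29, 14, 34 and 24 counts against 5, 13, 3 and 17 in control, and its log2 fold change of 1.82 (SE 0.592, unadjusted p = 0.0056, adjusted p = 0.37) did not pass. In FPM the lowest EGF library (1.08) was just above the highest control library (0.977). The share of all genes without such overlap was not computed after 24 h. With AII + EGF CDKN2D had 17, 11 and 15 counts, and its lowest library (0.799 FPM) lay within the control range. The log2 fold change was 0.88 (SE 0.638, unadjusted p = 0.18) and did not pass.

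**Figure D3:**
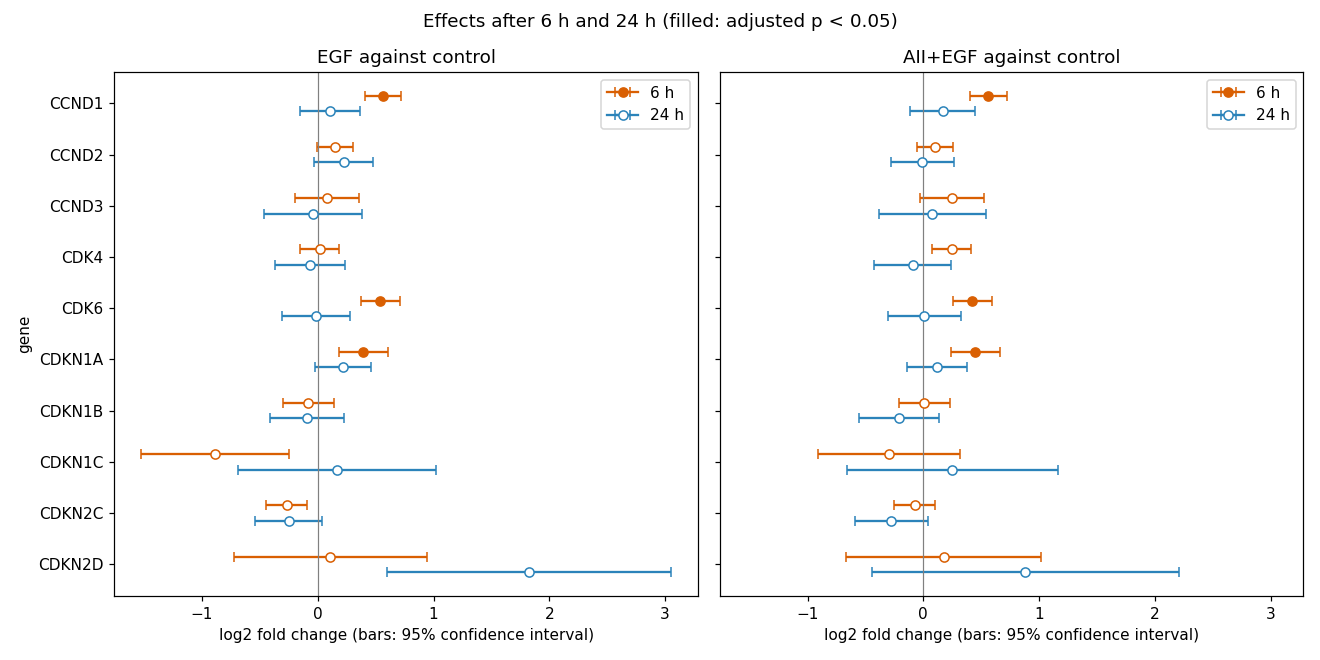
Log2 fold change against control (horizontal axis, with 95% confidence intervals) of the 10 genes for EGF and for AII + EGF after 6 h and 24 h. Filled points passed the test. CCND1, CDK6 and CDKN1A are filled after 6 h in both comparisons, and none is after 24 h.

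Whether the effects differed between the times was tested in a joint fit, since passing at one time and not at the other does not show it. The EGF effect after 24 h minus that after 6 h was -0.46 (SE 0.143, unadjusted p = 0.0027, adjusted p = 0.21) for CCND1, -0.56 (SE 0.162, unadjusted p = 0.0014, adjusted p = 0.17) for CDK6 and -0.18 (SE 0.156, adjusted p = 0.75) for CDKN1A. No member passed, against 0.173% of all genes, and DESeq2 called 0. Unadjusted p was under 0.05 for 3 members, CCND1, CDK6 and CDKN2D, against 10.1% of all genes. The difference of CDKN2D, which has few counts, went the other way (1.72, SE 0.708, unadjusted p = 0.02). For AII + EGF the differences were -0.41 (SE 0.149, adjusted p = 0.43) for CCND1 and -0.43 (SE 0.169, adjusted p = 0.49) for CDK6, and 0.123% of all genes passed. Again DESeq2 called 0 members, and 4 had an unadjusted p under 0.05 against 7.49% of all genes. These were CCND1, CDK4, CDK6 and CDKN1A, each with a negative difference.

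**Figure D4:**
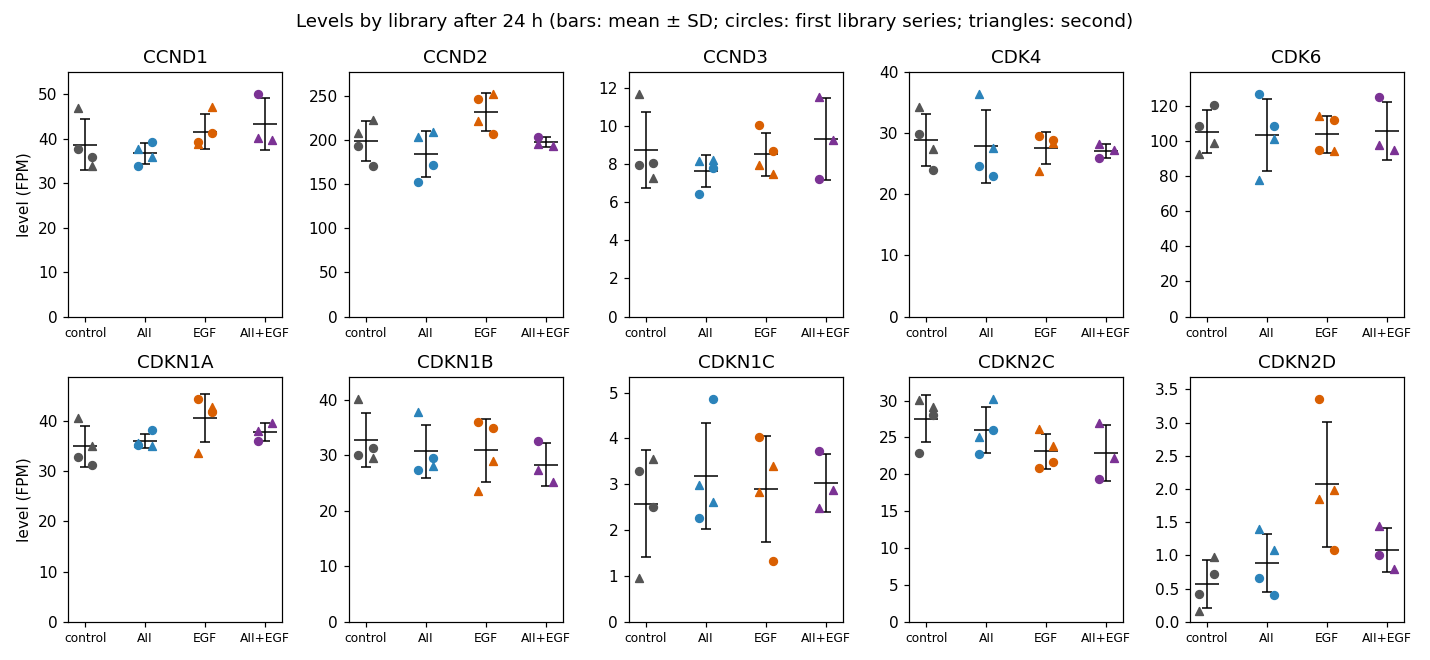
Levels after 24 h in FPM (vertical axes, each from 0) for the 10 genes in the 4 conditions. Points are libraries and bars the mean ± SD. The CCND1 libraries with EGF (38.8 to 47.2 FPM) lie within or just above the control range (33.8 to 46.9 FPM).

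A list of 32 further genes of the pathway, all tested, was read beside the 5.97% and 6.1% of all genes that passed with EGF and AII + EGF after 6 h. With EGF 1 rose and 2 fell: HSP90AB1, a chaperone that helps fold CDK4, rose by 0.27 on the log2 scale (SE 0.059, adjusted p = 0.0064), RBL2, a relative of the retinoblastoma protein, fell by 0.39 (SE 0.073, adjusted p = 0.0017) and TFDP2, a partner of E2F factors, fell by 0.26 (SE 0.069, adjusted p = 0.022). With AII + EGF 2 rose and 3 fell: HSP90AB1 (0.33) and CDC37 (0.38), the co-chaperone of kinases, rose, and RBL2 (-0.47), TFDP2 (-0.32) and RBL1 (-0.32) fell. None passed with AII or after 24 h. The median log2 fold change of the list was 0.12 with EGF and 0.027 with AII + EGF, against -0.012 and -0.014 over all genes.

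Of 15 p53 target genes other than CDKN1A, 0 passed with EGF and 1 with AII + EGF after 6 h, which is near the 5.97% and 6.1% of all genes. FAS, a death receptor, fell by 0.69 (SE 0.138, adjusted p = 0.0027) with AII + EGF. The medians were -0.23 with EGF and -0.175 with AII + EGF, against -0.012 and -0.014 over all genes. Whether p53 is active in this line was not tested. EGR1, an immediate early gene used to check that EGF acted, rose by 4.48 on the log2 scale (SE 0.173) with EGF and by 4.64 (SE 0.172) with AII + EGF after 6 h. ETV5, chosen for the same check, rose by 5.64 (SE 0.485) and 5.87 (SE 0.476), and DUSP6 and SPRY4 did not pass the filter on low counts at that time. After 24 h EGR1 still rose, by 2.53 (SE 0.185) with EGF and 2.95 (SE 0.194) with AII + EGF. ETV5 did not pass then (3.1, SE 0.723, adjusted p = 0.15 with EGF and 3.6, SE 0.752, adjusted p = 0.11 with AII + EGF). DUSP6, tested at that time, did not pass either (0.67, SE 1.016 with EGF and 0.83, SE 1.09 with AII + EGF).

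Across the 16 libraries after 6 h, the genes most like CCND1 by Pearson correlation of log2 FPM were TNC (0.966) and DOPEY2 (0.962), out of 13000 compared. Among the 10 genes CDKN1A (0.81) and CDK6 (0.801) correlated most with CCND1. The points share their treatments, so these values describe the same rise with EGF and carry no test. CDK6 and CDKN2C were opposed (-0.785).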

How the data were processed

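RNA of HEK293 cells was depleted of rRNA and sequenced in paired ends. The deposited files hold unnormalised counts for each gene, for which the authors trimmed reads with Trim Galore and cutadapt 1.8.1, mapped them to hg19 with TopHat2 2.0.14 (the series text names HISAT2) and counted with featureCounts 1.4.6. The strand setting is not given in the sources used here. Labels name 32 libraries. Of these, 31 have a column that was mapped to them, and b08 (AII + EGF after 24 h) was not analysed here. Among the columns after 24 h 8 are named filtered and 7 are not.

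Counts were filtered with filterByExpr, scaled by TMM and tested by quasi-likelihood in edgeR 4.0.16 (R 4.3.3), in one fit per time point with all 4 conditions, and in a joint fit for the difference between times. P was adjusted (Benjamini-Hochberg) over all genes. DESeq2 1.42.0, limma 3.58.1 (voom) and other settings were alternatives. The scripts were tested on simulated data. Levels per kilobase used GENCODE canonical transcripts on GRCh37, a length adopted after values with all annotated exons had been seen. Promoters came from RefSeq and were placed on GRCh37 by exact match.

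The 10 genes and the gene lists were chosen with earlier results of these data known. Genes named beyond the members were the listed genes that passed, and those most correlated with CCND1, of which one is not reported here. EGR1, ETV5, DUSP6 and SPRY4 served as a check of the EGF response, and genes that overlap exons of CCND1 and CDK4 were added after values were seen. Nothing in the labels says that libraries came from separate cultures, so p-values measure the spread between these samples, which may be technical.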

Additional observations from a re-analysis of the deposited data

Results flagged for a closer look

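In 4 of 70 groups of 4 libraries 1 library stood apart from the other 3, where chance gives about 3.5. Each value below compares the distance between that library and its neighbour with the whole span of its group. CDKN1A with EGF after 6 h was lowest in library c11 (81.9 FPM, next 89.7 FPM, ratio 0.833), and CDKN2C in the same library was lowest too (48.4 FPM, next 54.4 FPM, ratio 0.91). CDKN1A with AII after 24 h was highest in b06 (38.1 FPM, next 35.5 FPM, ratio 0.838). CDKN1B in control after 24 h was highest in b09 (40 FPM, next 31.3 FPM, ratio 0.83).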

How the results depend on the processing

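With the study's filters on fold change and FPM added, 0 of the 10 genes were called with EGF and 0 with AII + EGF after 6 h, against 3 and 3 without them. Leaving out each library in turn gave 2 to 3 and 3 to 4. In all other comparisons the count stayed at 0 under every setting run. CCND1 and CDK6 passed in both 6 h comparisons under every setting apart from those filters. Of the values for single genes 415 kept their direction and side of the threshold, 5 lost and 5 gained a call and 15 changed sign, all of genes that did not pass. The sign changed for CDK4 with EGF under voom (-0.001) and for CDKN1B with AII + EGF among protein-coding genes (-0.003). The cause was not tested. Leaving out libraries, the log2 fold change with EGF ran from -0.026 to 0.187 for CCND3, from -0.043 to 0.089 for CDK4, from -0.159 to 0.024 for CDKN1B and from -0.065 to 0.29 for CDKN2D. With AII + EGF it ran from -0.07 to 0.114 for CDKN1B, from -0.13 to 0.022 for CDKN2C and from -0.194 to 0.405 for CDKN2D. No paired analysis was possible because replicates carry no number in the labels. The library series, which pairs no samples, was fitted as a term and gained the call of CDK4 with AII + EGF. With 6 to 21 counts, the 95% interval of CDKN2D with EGF after 6 h ran from -0.728 to 0.939, so that smaller effects were not detectable. The length of all annotated exons, with the shares in the report, was an alternative chosen after seeing the data.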
